A study of Mus musculus with 4 samples.

Results

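Beta-adrenergic receptor (ADRB) signaling was examined in TAMs, the macrophages of a tumor, through 9 genes of its proximal machinery: *Adrb1*, *Gnas*, *Gnai2*, *Adcy7*, *Adcy9*, *Grk2*, *Arrb1*, *Arrb2* and *Rapgef3*. They were chosen by symbol as parts of 1 signaling chain, and they are 9 of the 54146 genes counted. There were 2 libraries of control mice, which the labels call vehicle, and 2 of propranolol treated mice, numbered as replicates 1 and 2 in each group. All mice were female C57BL/6, 8 to 16 weeks old, and carried subcutaneous tumors grown from MCA205 cells, a mouse fibrosarcoma line. The treated mice drank water with propranolol, a nonselective ADRB blocker, at 0.5 g/L from the day of inoculation. CD45+ cells were enriched from the tumors with beads, live CD11b+F4/80+ cells were sorted, and RNA with an integrity number above 7.5 was sequenced. The labels do not say whether a sample pooled tumors from several mice. Counts added up to 13798249 and 23018142 in control replicates 1 and 2, and to 39818103 and 16424081 in propranolol replicates 1 and 2.

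Noradrenaline and adrenaline bind ADRBs, which activate the stimulatory G protein subunit encoded by *Gnas*. That subunit switches on adenylyl cyclases, which make the second messenger cAMP, while inhibitory subunits such as the product of *Gnai2* hold several cyclases back. cAMP activates protein kinase A and the Rap exchange factor encoded by *Rapgef3*, and receptor kinases and arrestins shut the active receptor down. In macrophages, ADRB signaling through cAMP is known to dampen the release of inflammatory cytokines.

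The sorted cells carried the defining macrophage markers in all 4 libraries. Levels are in CPM, the usual scaling of counts to a fixed library size, with sizes normalized by TMM. *Adgre1*, which encodes F4/80, was at 975 and 1008 CPM in control and at 1151 and 1100.0 CPM in propranolol libraries. *Itgam*, which encodes CD11b, was at 359 and 352 CPM in control and at 369 and 313 CPM in propranolol libraries. *Csf1r*, the receptor for the macrophage growth factor CSF1, was at 2553 and 2464 CPM in control and at 3595 and 3981 CPM in propranolol libraries.

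Across the 9 genes, the most abundant transcripts were those of the inhibitory G protein subunit, the arrestin ARRB2, the kinase GRK2 and the cyclase ADCY7, and the receptor ADRB1 was close to the detection limit. Levels of different genes are compared as TPM, which divides by the exon length of each gene. The mean over 4 libraries was 1311 ± 354 TPM (SD) for *Gnai2*, 660.4 ± 146 TPM for *Arrb2*, 396 ± 101 TPM for *Grk2* and 214 ± 41.2 TPM for *Adcy7*. It was 55.1 ± 6.92 TPM for *Arrb1*, 9.81 ± 1.72 TPM for *Adcy9* and 4.86 ± 1.96 TPM for *Gnas*. *Adrb1* had a mean of 0.546 ± 0.387 TPM and *Rapgef3* one of 0.472 ± 0.282 TPM, and these last levels were closer to each other than their spread over libraries.

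In propranolol treated mice, 5 of the 9 genes were higher (*Gnai2*, *Grk2*, *Arrb2*, *Adcy9* and *Adcy7*), *Gnas* was lower, and 3 did not pass the test (*Arrb1*, *Adrb1* and *Rapgef3*). A gene was called changed when the edgeR quasi-likelihood test gave an adjusted p below 0.05 and the change was more than 1.5-fold. Of all 14688 genes tested, 27.8% were changed, 12.2% higher and 15.6% lower. By the adjusted p alone, 7 of the 9 genes passed (*Arrb1* in addition), as did 42.2% of all tested genes, 21.8% with a higher and 20.4% with a lower level. After a correction for the GC content of genes, 1122 of all tested genes were higher and 733 lower, against 1798 and 2286 before it, and 3 of the 9 genes were changed, *Gnai2* (higher), *Gnas* and *Adrb1* (lower). The CPM of the control and the propranolol libraries did not overlap for any of the 9 genes, and they did not overlap for 72.6% of all tested genes. All 9 genes were tested, but *Adrb1* passed the filter on low counts through the control libraries alone, and *Rapgef3* through both control libraries and 1 propranolol library. The median log2 fold change was 0.61 over the 9 genes and -0.02 over all tested genes. In such bulk samples, fewer cells of a type and less RNA per cell cannot be told apart.

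**Figure D1:**
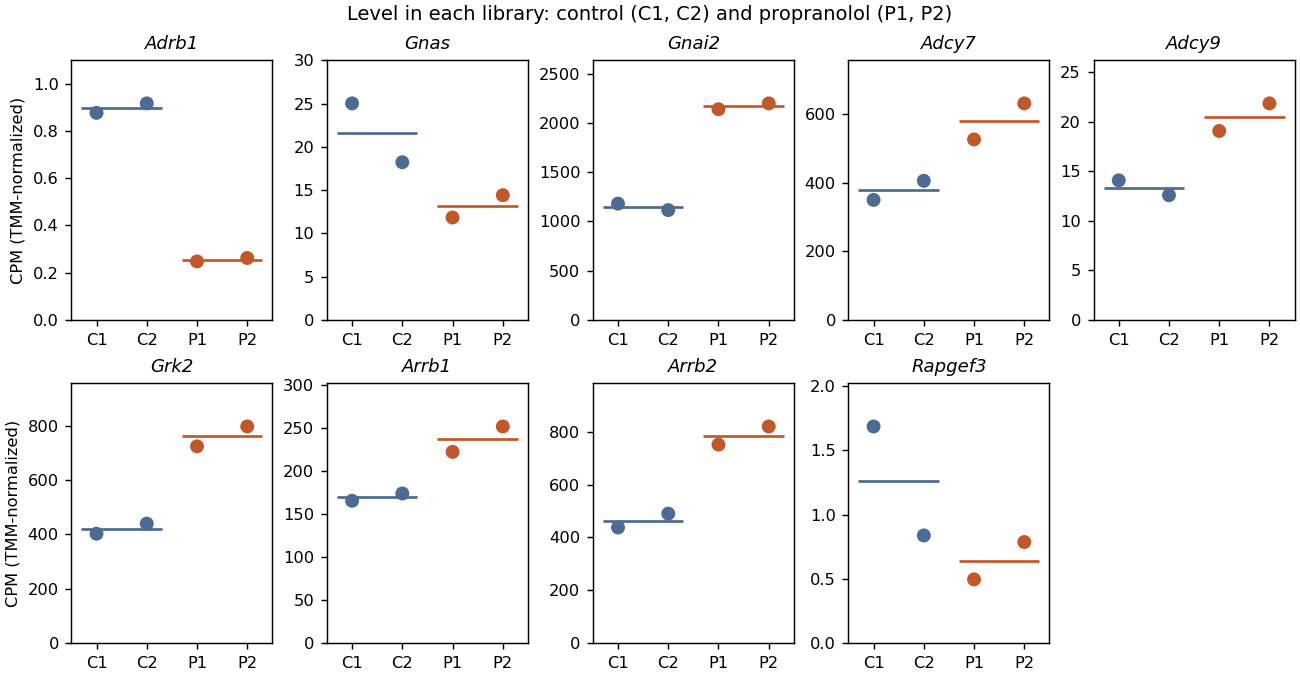
Level of each of the 9 genes in CPM (vertical axis, a scale of its own for each gene, from 0) in control replicates 1 and 2 (C1, C2, blue) and propranolol replicates 1 and 2 (P1, P2, orange), with the mean of each group as a line. *Gnai2*, *Adcy7*, *Adcy9*, *Grk2*, *Arrb1* and *Arrb2* lie higher in both propranolol libraries, and *Adrb1*, *Gnas* and *Rapgef3* lie lower.

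*Adrb1* encodes the beta-1 receptor, one of the targets of propranolol, and lies on chr19:56722199-56733113 (mm10, plus strand). Primers for qRT-PCR of this transcript are shown because they mark the stretch of the gene used to assay it in cultured MCA205 cells. They match the coding sequence within a single exon, at chr19:56722583-56722602 and chr19:56722684-56722703, around a product of 121 bases.
forward primer: tcatcgtggtgggtaacgtg
reverse primer: accagcaatcccatgaccag
None of the exon bases of *Adrb1* are shared with another annotated gene.

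*Adrb1* was counted 13 and 23 times in control and 9 and 4 times in propranolol libraries. These counts correspond to 0.877 CPM (95% Poisson interval 0.467 to 1.499) and 0.917 CPM (0.581 to 1.38) in control replicates 1 and 2, where the intervals cover counting error only. They correspond to 0.248 CPM (0.113 to 0.470) and 0.262 CPM (0.0714 to 0.671) in propranolol replicates 1 and 2. Both propranolol libraries were thus below both control libraries, although the interval of propranolol replicate 1 reached just into that of control replicate 1 and the interval of propranolol replicate 2 into those of both control libraries. The log2 fold change was -1.81 ± 0.66 (SE), which is 0.286-fold with a 95% interval of 0.103 to 0.795, and the edgeR adjusted p was 0.0502. *Adrb1* therefore missed the threshold, and its adjusted p lay between 0.186 and 0.280 with any 1 library left out. With the GC correction the log2 fold change was -2.13 and the adjusted p 0.0416, and with upper-quartile factors the adjusted p was 0.0459. The adjusted p was 0.0550 with limma-voom and 0.118 in the edgeR test without a filter on low counts, and neither passed. With the filter, *Adrb1* was tested only through its level in the control libraries, where it was high, so the filtered fits do not by themselves show a lower level.

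*Adrb3*, the beta-3 receptor gene, is not among the 9 genes and had 1 count in each of 2 libraries and 0 in the other two.

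Beyond the receptor itself, the sequence upstream of the genes was searched for the cAMP response element, bound by CREB, which protein kinase A activates. The full site TGACGTCA and its shorter form TGACG, which is contained in the full site, were searched on either strand in the 250 bases before the annotated start. RefSeq sequences (GRCm38.p6) were at hand for 5 of the 9 genes, with 10 starts. TGACG was in 7 of the 10 sequences and in at least 1 sequence of each of the 5 genes, but some starts of *Gnas* lie so close that they share a site. Among 32851 upstream sequences of the whole genome, 17.8% held TGACG and 1.55% the full site, which was in 0 of the 10. These are shares of sequences, so they do not compare with the count of genes, which joins several starts. The 10 sequences had a GC content between 54.0% and 80.0%, and the genome sequences were not matched for it. The sequences of *Adrb1* (chr19:56721867-56722116, plus strand, first base of the site 90 bases before the start) and *Adcy9* (chr16:4420499-4420748, minus strand, 24 bases before the start) are shown 5′ to 3′ because the fitted change was negative for the former and positive for the latter while both hold the short site, in capitals. A match in letters does not say that CREB binds there.
Adrb1 upstream: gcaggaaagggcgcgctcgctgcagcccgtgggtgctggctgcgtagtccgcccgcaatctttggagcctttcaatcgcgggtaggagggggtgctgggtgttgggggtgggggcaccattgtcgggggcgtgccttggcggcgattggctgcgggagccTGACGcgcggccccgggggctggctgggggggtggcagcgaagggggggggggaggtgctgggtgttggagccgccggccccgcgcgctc
Adcy9 upstream: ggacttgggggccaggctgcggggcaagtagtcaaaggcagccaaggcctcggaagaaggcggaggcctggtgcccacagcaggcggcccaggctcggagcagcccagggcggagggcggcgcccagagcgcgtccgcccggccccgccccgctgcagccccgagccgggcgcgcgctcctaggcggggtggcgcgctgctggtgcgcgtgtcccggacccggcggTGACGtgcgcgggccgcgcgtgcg
*Gnai2*, *Arrb1*, *Arrb2* and *Grk2* were not searched.

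The counts of *Gnai2* and *Gnas*, genes of subunits that oppose each other on adenylyl cyclase, moved in opposite directions. The *Gnas* locus also makes other proteins and overlaps other genes, so its counts cannot be read as the stimulatory subunit alone. *Gnai2* (chr9:107614125-107635367, minus strand), which encodes the inhibitory subunit alpha-i2, was at 1179 and 1114 CPM in control and at 2138 and 2197 CPM in propranolol libraries. The mean rose from 1147 ± 46.2 to 2167 ± 41.7 CPM (SD, n = 2 each), a log2 fold change of 0.92 ± 0.09 (SE, 1.89-fold, 95% interval 1.66 to 2.16) with an edgeR adjusted p of 0.000103. The gap between the groups was many times the distance between replicates, and the change of *Gnai2* was above that of 95.8% of all tested genes. Its call held in all 13 alternative fits at these thresholds, with log2 fold changes between 0.59 and 1.02. The related *Gnai3* was at 142 and 125 CPM in control and at 111 and 93.6 CPM in propranolol libraries, a log2 fold change of -0.38 (adjusted p = 0.0266) that is smaller than 1.5-fold. *Gnai2* therefore made up 87.8% and 88.5% of the summed TPM of *Gnai1*, *Gnai2* and *Gnai3* in control libraries and 94.3% and 95.3% in propranolol libraries. *Gnai1* was counted in only 1 library of each group. The longest transcripts of *Gnai2* and *Gnai3* had a GC content of 56.7% and 41.7%. No value with the GC correction is given for *Gnai3* or for the shares, and this shift of the shares was not tested.

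*Gnas* (chr2:174284320-174346744, plus strand), the gene of the stimulatory subunit, had 371 and 457 counts in control and 430 and 220 counts in propranolol libraries. That is 25.02 and 18.2 CPM in control and 11.8 and 14.4 CPM in propranolol libraries, so control replicate 1 stood highest and the groups did not overlap. The log2 fold change was -0.72 ± 0.19 (SE, 0.606-fold, 95% interval 0.449 to 0.816) and the edgeR adjusted p 0.0133. The call was lost without control replicate 1 (log2 fold change -0.43, adjusted p = 0.149) and without propranolol replicate 1 (-0.57, adjusted p = 0.0373, under 1.5-fold), and with the GC correction the value was -1.06 (adjusted p = 0.0042).

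The level and the fold change of *Gnas* are uncertain because the locus overlaps other genes. The *Gnas* locus is imprinted and makes several proteins from separate starts that share their last exons. In GENCODE M21, 22.0% of its exon bases are also exon bases of 2 other genes. The opposite-strand gene *Gm20721* covers 84.7%, 80.4% and 85.4% of the bases of the 3 protein-coding transcripts *Gnas-206*, *Gnas-207* and *Gnas-208*, which start between chr2:174330006 and chr2:174330097 and run to the end of the locus. By default the counting tool leaves out fragments that overlap exons of more than 1 gene, and with no strand option it does so whatever the strand. *Gm20721* itself had 1 and 5 counts in control and 7 and 0 counts in propranolol libraries, and the opposite-strand *Nespas* had 0 and 9 in control and 6 and 2 in propranolol libraries. How many *Gnas* fragments were left out, and which transcripts the counted ones came from, cannot be read from the counts. The fold change of *Gnas* and its order among the 9 genes by TPM carry the same limit.

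**Figure D2:**
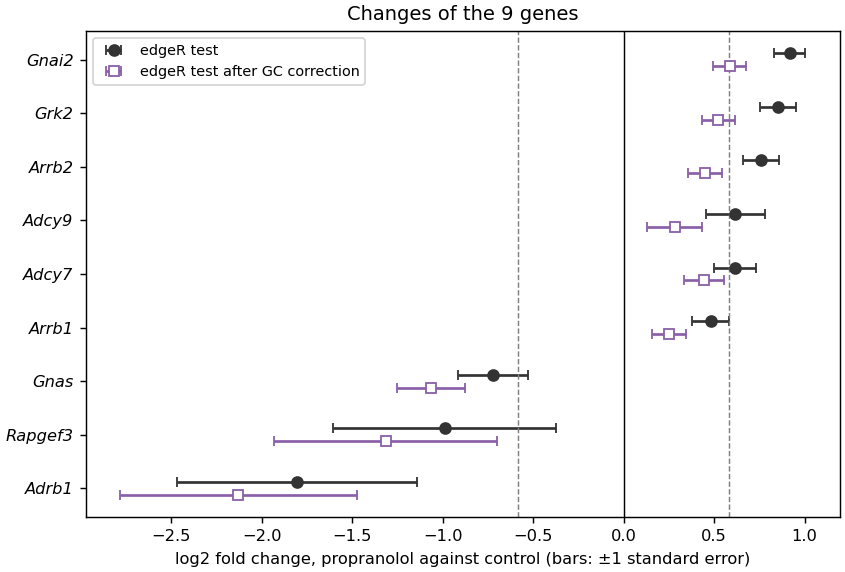
Log2 fold change of each of the 9 genes, propranolol against control (horizontal axis), from the edgeR test (black circles) and from the same test after GC correction (open squares), with bars of 1 standard error and dashed lines at 1.5-fold. All 9 values keep their sign after the correction, and *Gnai2* moves from 0.92 to 0.59.

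Of the adenylyl cyclases, ADCY7 carried most of the transcripts and both cyclase genes among the 9 were higher in propranolol treated mice. *Adcy7* (chr8:88272403-88329962, plus strand) encodes a cyclase known to be abundant in blood cells, and was at 350 and 405 CPM in control and at 526 and 631 CPM in propranolol libraries. Its log2 fold change was 0.61 ± 0.12 (SE, 1.53-fold, 95% interval 1.28 to 1.83, edgeR adjusted p = 0.0023). *Adcy9* (chr16:4287529-4420498, minus strand) was at 14.1 and 12.6 CPM in control and at 19.1 and 21.9 CPM in propranolol libraries, with a log2 fold change of 0.62 ± 0.16 (SE, 1.53-fold, 95% interval 1.19 to 1.97, adjusted p = 0.0122). All propranolol libraries lay above all control libraries for both genes. Both changes were just above 1.5-fold. With upper-quartile factors both fell under it, at 0.56 for each, and with the GC correction they were 0.45 (adjusted p = 0.0187) and 0.28 (adjusted p = 0.209). *Adcy7* also fell under 1.5-fold without control replicate 1 (0.57) or propranolol replicate 2 (0.51), and *Adcy9* without control replicate 2 (0.55) or propranolol replicate 2 (0.55). *Adcy7* made up between 86.9% and 89.1% of the summed TPM of 10 cyclase genes in every library. *Adcy6* went from 2.98% and 2.05% in control to 0.973% and 0.927% in propranolol libraries, and these shares were not tested.

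Of the genes whose products switch an active receptor off, *Grk2* and *Arrb2* were higher and *Arrb1* was not called. *Grk2* (chr19:4286001-4306222, minus strand) encodes the kinase that phosphorylates agonist-bound ADRBs, and was at 402 and 439.7 CPM in control and at 724 and 798 CPM in propranolol libraries. Its log2 fold change was 0.85 ± 0.10 (SE, 1.81-fold, 95% interval 1.55 to 2.10, edgeR adjusted p = 0.000208). *Arrb2* (chr11:70432635-70440828, plus strand), whose product binds the phosphorylated receptor and uncouples it from the G protein, was at 438 and 490.2 CPM in control and at 752 and 821 CPM in propranolol libraries. Its log2 fold change was 0.76 ± 0.10 (SE, 1.69-fold, 95% interval 1.45 to 1.97, adjusted p = 0.000359). Neither gene had overlapping groups, and for both the gap between the groups was several times the distance between replicates.

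*Arrb1* (chr7:99535466-99606771, plus strand), the gene of the other beta-arrestin, was at 165 and 174 CPM in control and at 222 and 252 CPM in propranolol libraries. The log2 fold change was 0.48 ± 0.10 (SE, 1.40-fold, 95% interval 1.19 to 1.64) with an adjusted p of 0.0043, which passed the p threshold but not the fold threshold. With the GC correction, *Grk2* (0.52, adjusted p = 0.0042) and *Arrb2* (0.45, adjusted p = 0.0087) also fell under 1.5-fold, and *Arrb1* was at 0.25 (adjusted p = 0.0837). *Arrb2* made up 91.2% and 91.7% of beta-arrestin TPM in control libraries and 93.0% and 92.8% in propranolol libraries. *Grk2* made up 73.2% of the TPM of *Grk1* to *Grk6* in each control library, and 77.9% and 78.2% in the propranolol libraries. Of the exon bases of *Arrb2*, 2.25% are shared with the microRNA gene *Mir7115*.

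**Figure D3:**
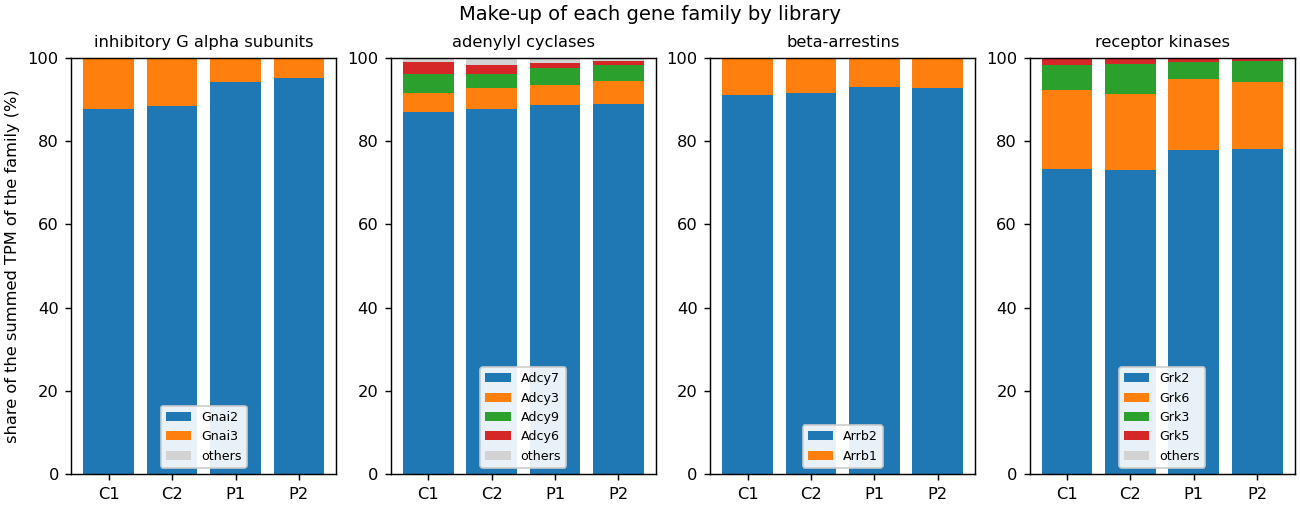
Share of the summed TPM of a gene family (vertical axis, percent, 0 to 100) that each gene takes in control (C1, C2) and propranolol (P1, P2) libraries, for inhibitory G alpha subunits, adenylyl cyclases, beta-arrestins and receptor kinases, where genes under 1% on average are joined as others. *Gnai2*, *Adcy7*, *Arrb2* and *Grk2* take the largest share of their family in all 4 libraries, and *Gnai2* goes from 87.8% and 88.5% to 94.3% and 95.3%. The shares are not corrected for GC content.

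*Rapgef3* (chr15:97744770-97767972, minus strand) encodes EPAC1, which couples cAMP to the small G protein RAP1 without protein kinase A. It had 25 and 21 counts in control and 18 and 12 counts in propranolol libraries, or 1.69 and 0.837 CPM against 0.495 and 0.786 CPM. Control replicate 2 and propranolol replicate 2 were close to each other, and the log2 fold change of -0.99 ± 0.62 (SE, 95% interval -2.37 to 0.39, edgeR adjusted p = 0.226) did not differ from 0 beyond the spread between replicates. Without control replicate 1 the value was -0.37 (adjusted p = 0.816), and without propranolol replicate 1 it was -0.64 (adjusted p = 0.598). *Rapgef3* shares 6.11% of its exon bases with other genes, mostly the opposite-strand *Rapgef3os2*, which had 2 counts in all.

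The 9 genes were rich in G and C, and in these libraries GC content moved with the fold change. The longest transcripts of the 9 genes had a GC content between 52.4% (*Adcy7*) and 58.8% (*Adrb1*), against a median of 49.6% over all tested genes. Across 14681 genes of the same 4 libraries, Spearman's rank correlation between GC content and log2 fold change was 0.577, given as a description since genes are not independent replicates. Among genes within 1 percentage point of the GC content of each of the 9, the median log2 fold change was between 0.27 (around *Adcy7*) and 0.49 (around *Gnas*), and between 15.8% and 35.2% of these genes were higher. *Gnai2* at 0.92 and *Grk2* at 0.85 lay above the median of 0.48 of their windows, and *Adcy9* at 0.62 lay closer to it. *Adrb1*, *Gnas* and *Rapgef3* lay on the other side of 0 from the medians of their windows, in which 43, 42 and 40 genes were lower. Whether GC content itself set any of these values was not tested.

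**Figure D4:**
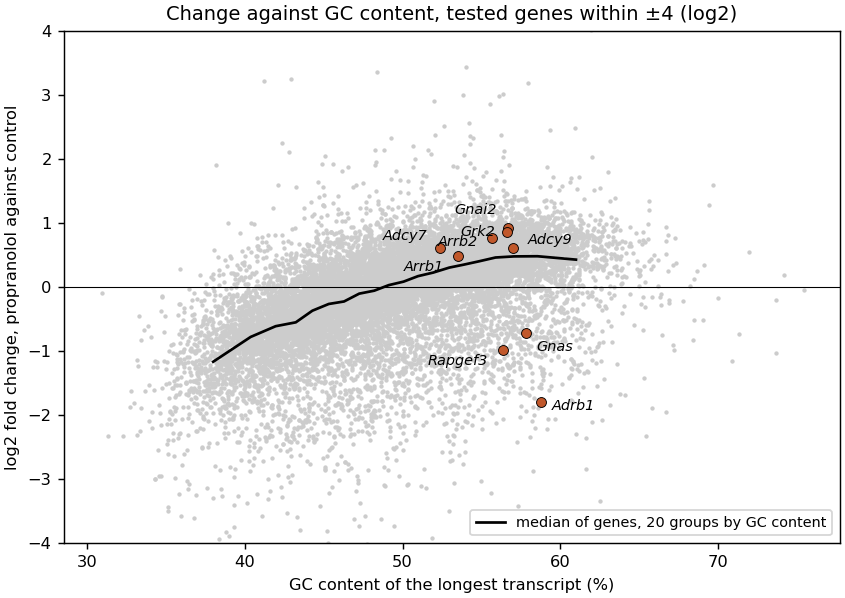
Log2 fold change, propranolol against control (vertical axis), against the GC content of the longest transcript in percent (horizontal axis) for tested genes (grey), with the median of 20 groups of genes by GC content (black line) and the 9 genes (orange). The axis ends at ±4, which leaves out 25 genes. *Gnai2*, *Grk2* and *Arrb2* lie above the line, while *Gnas*, *Rapgef3* and *Adrb1* lie below 0.

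The other genes of the pathway were described with 79 genes in 8 lists by role, of which 52 were tested and 22 were changed, 10 higher and 12 lower. The share of 42.3% stands beside the 27.8% of all tested genes, and the median log2 fold change of the lists was -0.13. Counts by role below stand beside 12.2% higher and 15.6% lower among all tested genes. The lists are small, so these counts are not read as results about a role. After the GC correction, 8 of the 52 were changed, beside 1855 of the 14688 genes tested. The 12 lower genes include *Rgs4*, which passed the filter on low counts through the control libraries alone. Of the 22, 6 kept their call with the GC correction, 14 lost it and 2 turned their direction. At these thresholds the call held in every alternative fit for *Gng11*, *Rgs5*, *Rgs16* and *Gpsm1*.

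Among 7 other adrenergic receptor genes, *Adra2a* was the one abundant enough to be tested. *Adra2a*, which encodes an alpha-2 receptor that couples to inhibitory G proteins, was at 3.57 and 1.55 CPM in control and at 1.35 and 1.24 CPM in propranolol libraries (log2 fold change -0.95, adjusted p = 0.153). Its value rested on the control libraries, with -0.20 (adjusted p = 0.850) without control replicate 1 and -1.44 (adjusted p = 0.0292), which passed, without control replicate 2. *Adra2c*, another alpha-2 receptor gene, had 0 counts in all 4 libraries, where 3 counts would be between 0.0825 and 0.202 CPM.

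Of 8 tested genes among 10 other G alpha subunits, 2 were higher and 0 lower. *Gna12*, the most abundant of them, rose by 0.76 on the log2 scale (adjusted p = 0.000336) and *Gna15*, a Gq family gene of blood cells, by 0.66 (adjusted p = 0.0013). With the GC correction both fell under 1.5-fold, at 0.42 and 0.32. The beta and gamma subunits, which form the other part of the G protein, went both ways, with 2 of 11 tested genes higher and 3 lower. *Gnb2*, the most abundant, was at 487 and 498 CPM in control and at 864 and 862 CPM in propranolol libraries (log2 fold change 0.81, adjusted p = 0.000171), and *Gng10* was also higher (0.60, adjusted p = 0.0245). With the GC correction *Gnb2* was under 1.5-fold, at 0.49. *Gng11* (-1.60, adjusted p = 0.0020), *Gnb4* (-1.01, adjusted p = 0.0093) and *Gng12* (-0.62, adjusted p = 0.0027) were lower. With the GC correction *Gnb4* was at -0.66 (adjusted p = 0.072) and *Gng12* at -0.05 (adjusted p = 0.786), so both calls were lost, and *Gnb4* was at -0.66 without propranolol replicate 2. *Gng11* was at 8.50 and 6.38 CPM in control and at 2.39 and 2.49 CPM in propranolol libraries. *Gng10* lost its call without control replicate 2 (0.51) or propranolol replicate 1 (0.49), and *Gng12* without control replicate 1 (-0.43) or propranolol replicate 2 (-0.53). *Gng10* was also under 1.5-fold with upper-quartile factors (0.54) and with the filter of at least 1 CPM (0.58). *Gng4*, *Gng13* and *Gngt1* had 0 counts.

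Of the remaining genes, 2 of 4 tested cyclases and 1 of 4 tested receptor kinases were changed. *Adcy3*, the most abundant of the 8 other cyclase genes, was higher (0.66, adjusted p = 0.0112) and *Adcy6* was lower (-0.80, adjusted p = 0.0165). *Adcy3* lost its call with the GC correction (0.33, adjusted p = 0.154) and without propranolol replicate 2 (0.48), and *Adcy6* without control replicate 1 (-0.57) or propranolol replicate 1 (-0.70). *Grk6* was the 1 kinase gene of 4 tested that passed (0.59, adjusted p = 0.0011), just above 1.5-fold, and was at 0.26 (adjusted p = 0.0665) with the GC correction. It also fell under 1.5-fold with upper-quartile factors (0.54) and with the filter of at least 1 CPM (0.57). Of the Rap genes downstream of EPAC1, *Rap1a* was at 129 and 112 CPM in control and at 66.7 and 49.6 CPM in propranolol libraries (-1.05, adjusted p = 0.000483), but its value was -0.04 (adjusted p = 0.832) with the GC correction. *Rap1b*, the most abundant of this list, was lower by the test (-0.60, adjusted p = 0.0046), but its value was 0.28 (adjusted p = 0.0988) with the GC correction and under 1.5-fold without control replicate 1 (-0.50) or propranolol replicate 2 (-0.37). These 2 genes were the ones that changed among 5 tested.

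The regulators of G proteins, which speed the return of alpha subunits to the inactive state or guide their assembly, held the 2 lowest log2 fold changes of the 52 genes, with 4 of 17 genes higher and 5 lower. *Rgs16* was at 42.1 and 42.1 CPM in control and at 16.1 and 10.6 CPM in propranolol libraries (log2 fold change -1.63, adjusted p = 0.000186). *Rgs5* was at 28.1 and 9.61 CPM in control and at 3.77 and 1.51 CPM in propranolol libraries (-2.71, adjusted p = 0.0019). It kept its call with 1 library left out, but the value went from -1.73 without control replicate 1 to -3.61 without propranolol replicate 1. *Rgs2*, whose product acts on Gq and on adenylyl cyclase, was at 205 and 199 CPM in control and at 131 and 123 CPM in propranolol libraries (-0.66, adjusted p = 0.000605), but its value was -0.17 (adjusted p = 0.201) with the GC correction. *Rgs1* was lower by the test (-1.01, adjusted p = 0.000134), but its value was 0.39 (adjusted p = 0.0222) with the GC correction. *Rgs4*, at or under 1.28 CPM in every library, was tested only through its level in the control libraries, where it was high. It was lower by the test (-2.39, adjusted p = 0.0298) and lost the call with the GC correction (-1.94, adjusted p = 0.094). The call was also lost with any 1 library left out, with values between -2.87 (without control replicate 2) and -1.75 (without control replicate 1). The genes that rose were *Gpsm1* (0.95, adjusted p = 0.0019), *Rgs19* (0.73, adjusted p = 0.000571), *Rgs14* (0.66, adjusted p = 0.0015) and *Ric8a* (0.60, adjusted p = 0.0020). With the GC correction *Rgs19* (0.55), *Rgs14* (0.51) and *Ric8a* (0.31) were under 1.5-fold, and *Ric8a* was so without propranolol replicate 2 (0.55) too. *Ric8a* was also under 1.5-fold with upper-quartile factors (0.54) and with the filter of at least 1 CPM (0.58). *Rgs10*, which had the highest mean of the list over the 4 libraries at 218 TPM but was below *Gpsm3* in both propranolol libraries, had a log2 fold change of -0.36 (adjusted p = 0.0273), under 1.5-fold.

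Of 9 genes for catecholamine synthesis, uptake and breakdown, 2 were tested, of which 1 was lower. *Maoa*, the most abundant of them, which encodes an enzyme that oxidizes monoamines, was at 4.65 and 4.94 CPM in control and at 3.74 and 3.80 CPM in propranolol libraries (log2 fold change -0.35, adjusted p = 0.350), and its value was 0.47 with the GC correction. *Slc18a2*, the gene of the vesicular monoamine transporter, was at 2.76 and 1.67 CPM in control and at 0.633 and 0.720 CPM in propranolol libraries (-1.70, adjusted p = 0.0233), and its call was lost without control replicate 1 (-1.26) or propranolol replicate 1 (-1.59) and with the GC correction (-1.49, adjusted p = 0.0622). *Th* and *Pnmt*, which encode the enzymes of the entry and the last step of adrenaline synthesis, and the transporter gene *Slc22a3* had 0 counts in all libraries.

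**Figure D5:**
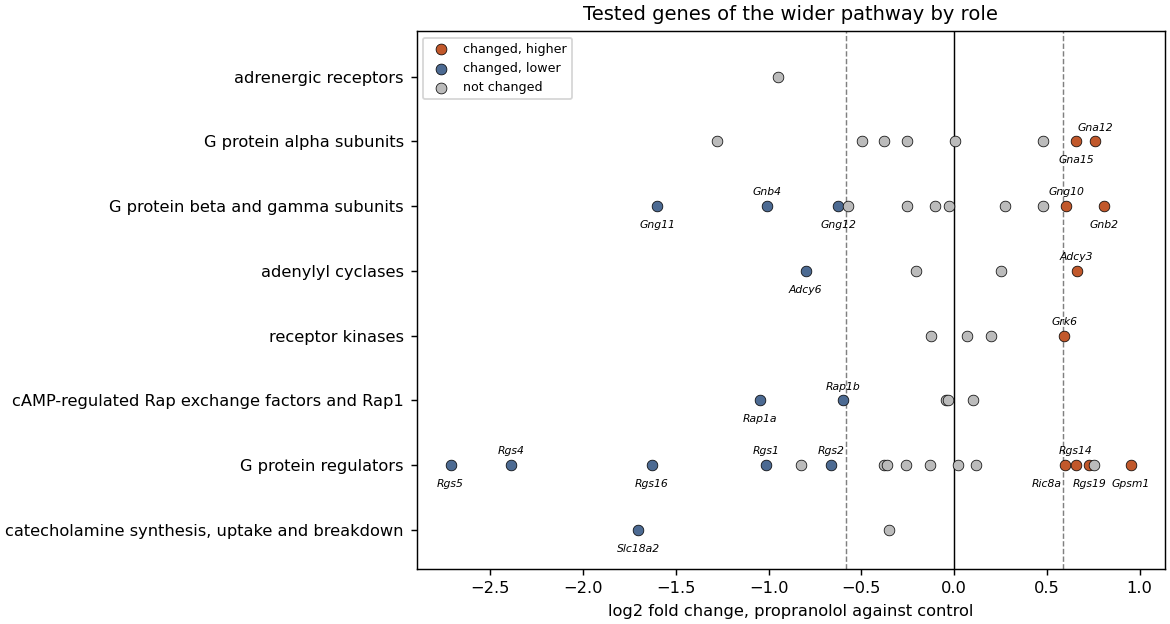
Log2 fold change, propranolol against control (horizontal axis), of the 52 tested genes of the wider pathway by role (vertical axis), with higher genes in orange, lower genes in blue and genes that were not changed in grey, and dashed lines at 1.5-fold. Changed genes are named, 10 are higher and 12 lower, and the lowest is *Rgs5* at -2.71.

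Markers of other cell types differed between the groups in the same libraries. The gene named as leading or most abundant in a marker list has the highest mean TPM over the 4 libraries. The order in CPM, the unit of the sums, can differ. The counts of changed markers stand beside 12.2% higher and 15.6% lower among all tested genes. No marker has a value here with the GC correction or another alternative fit. The summed level of 9 neutrophil markers was 226 and 244 CPM in control and 493 and 535 CPM in propranolol libraries, with 7 of 8 tested genes higher, *S100a9* the most abundant and *Ly6g* at or under 0.524 CPM in every library. The 10 T cell and NK cell markers summed to 350 and 390.4 CPM in control and to 173 and 92.1 CPM in propranolol libraries, with 9 lower and *Gzmb* the most abundant. The 7 fibroblast and fibrosarcoma markers, led by *Col1a1*, summed to 2737 and 1021 CPM in control and to 610 and 664 CPM in propranolol libraries, with 5 lower. Control replicate 1 was thus the highest for these markers as well as for *Gnas*, *Rapgef3*, *Rgs5* and *Slc18a2*. The 9 macrophage markers, led by *Lyz2*, summed to 19199 and 18320 CPM in control and to 23981 and 21833 CPM in propranolol libraries, where 7 of 9 had a positive log2 fold change and 1, *Csf1r* at 1.51-fold, was higher. The 4 dendritic cell markers summed to 18.5 and 20.3 CPM in control and to 11.03 and 8.12 CPM in propranolol libraries, with 2 lower. *Clec9a* led them by mean TPM (3.35), close to *Xcr1* (3.20), which had the higher TPM in replicate 1 of each group. In CPM *Xcr1* was above *Clec9a* in all 4 libraries. The 5 endothelial markers, led by *Cdh5*, summed to 18.2 and 15.8 CPM in control and to 23.4 and 29.2 CPM in propranolol libraries, with 1 higher. The 4 B cell markers, led by *Cd79b*, summed to 9.91 and 13.2 CPM in control and to 20.2 and 18.7 CPM in propranolol libraries, with 1 of 2 tested genes higher and 1 lower, where the latter, *Ms4a1*, passed the filter on low counts through the control libraries alone. The part of these cells in the values of the 9 genes was not tested.

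Genes whose pattern over the 4 libraries was most like that of *Adrb1* and *Gnai2* were found by the Euclidean distance of log2 CPM centred on the mean of each gene. For *Adrb1*, which also had the lowest log2 fold change of the 9, these were *Gm5165* (distance 0.0275), *Gm17300* (0.0642) and *Gm6377* (0.0846), with log2 fold changes of -1.63, -1.70 and -1.62. For *Gnai2*, which had the highest, they were *Lrwd1* (0.0157), *Ergic3* (0.0274) and *Flot1* (0.0501), with log2 fold changes of 0.91, 0.91 and 0.89. With 4 libraries in 2 groups, such a likeness largely reflects the difference between the groups.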

How the data were processed

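The values were counts of fragments per gene for 4 libraries, which the authors deposited without normalization. Per the methods and the submitters' processing notes, reads were aligned to mm10 with STAR 2.7.1a, filtered with SAMtools 1.9 and counted on GENCODE exons with featureCounts 1.6.4. The counting options were those for read pairs and exons, with no strand option among them, whose default is to ignore strand. The GENCODE release was not given in the sources used here, and the notes also name DESeq2 1.39.0. Genes were matched by identifier to GENCODE M21 on GRCm38 (54079 of 54146 matched, 0 sample columns left out). The version of the identifier was the same for 7 of the 9 genes, so exon lengths behind TPM may differ slightly for *Adrb1* and *Grk2*.

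The groups were compared over all genes with the edgeR 4.0.16 quasi-likelihood test (R 4.3.3, TMM, filterByExpr minimum count 10, Benjamini-Hochberg). Alternatives were DESeq2 1.42.0, limma-voom (limma 3.58.1), other size factors, filters and thresholds, each library left out, the replicate number as a block, and a GC correction by a spline with 5 degrees of freedom. The steps were run on simulated data, drawn with the same spread beyond counting noise for all genes, which cannot vouch for the calls made here. Replicates differed beyond counting noise (chi-square per degree of freedom 7.56 in control and 9.83 in propranolol libraries). The study calls them biological replicates, and whether each was 1 mouse or a pool was not given in the sources used here. An exact permutation of 2 against 2 cannot give a p below 0.333.

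The 9 genes, the lists and the alternatives were chosen with earlier results of these data known. The genes named are the 9, every changed gene and the most abundant tested gene of each pathway list, the 3 genes nearest in pattern to *Adrb1* and to the 9 genes' extremes, and of each marker list the most abundant gene and genes at 0. *Gnai1*, *Gnai3*, *Adrb3*, *Adra2a*, overlapping genes and defining cell type markers were added beside them. The qRT-PCR and flow cytometry were not analysed here. The pathway lists leave out 2 genes that are not reported here, in their counts too.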

Additional observations from a re-analysis of the deposited data

How the results depend on the processing

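The number of libraries, 2 a group, limits the precision, and *Adrb1* and *Rapgef3* rest on at most 25 counts a library. All 114 values of the 9 genes under alternatives kept their direction, 94 kept the call, 16 lost it and 4, all of *Adrb1*, gained it; DESeq2 gave no adjusted p for *Adrb1*. The numbers changed among all tested genes, the 9 genes and the wider pathway were 4084, 6 and 22. They were 1855, 3 and 8 with the GC correction, which moved the median log2 fold change of all genes from -0.02 to 0.09, 728, 0 and 5 beyond a log2 fold change of 1.5, and 1093, 2 and 6 with the edgeR glmTreat test against 1.5-fold. Without a threshold on size, 6204 genes passed in all and 7 of the 9. With 1 library left out, they ranged over 3615 to 4329, 4 to 5 and 17 to 22, where a group of 1 library took its spread from the other group. *Rap1b* (log2 fold change 0.28), *Rgs1* (0.39) and *Maoa* (0.47) reversed with the GC correction. The cause of these differences was not tested.

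Whether the replicate numbers pair libraries is not known: no label says that they mark a shared batch, and the deviations of same-numbered libraries from their group means correlated at 0.169 across genes. With the replicate block, 4362 genes in all, 7 of the 9 and 25 of the wider pathway were changed, and *Adrb1*, which was tested only through its level in the control libraries, was called (-1.79, adjusted p = 0.046), as it was with the GC correction. With the replicate block and the GC correction together, these were 2128, 3 and 11, and *Rap1b* was at 0.27 (adjusted p = 0.0225), *Rgs1* at 0.39 (adjusted p = 0.0026) and *Maoa* at 0.48, in the reversed direction.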
